A study of Homo sapiens with 72 samples.

Results

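Bystander fibroblasts were compared with sham-irradiated control fibroblasts 4 h after exposure, on 8 of the 72 arrays of a time series. The cells were early passage IMR-90, a strain of normal human lung fibroblasts from a single donor culture held by a repository. They were grown in dishes with a thin Mylar base, over which strips of thicker Mylar were placed. The 0.5 Gy beam of α-particles (4He ions) crossed the thin base and reached the cells attached to it, the irradiated group. It was stopped by the strips, and the cells on the strips, in the same dish and medium, formed the bystander group. Control dishes were handled alike with a dose of 0 Gy. Each group had 4 arrays at 4 h, 1 from each of 4 independent experiments, and the 3 treatments of an experiment came from a common pool of cells. The arrays of an experiment were therefore taken as a pair, chosen by treatment, time and experiment number alone. Total RNA labelled with the dye Cy3 was hybridised to Agilent whole human genome arrays, on which 1 array carries 1 sample. A bulk RNA sample cannot tell more RNA per cell from more cells of a kind.

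Cells next to irradiated cells respond although no particle crossed them, through gap junctions and through soluble factors such as cytokines, prostaglandins and reactive oxygen species. In fibroblasts many of the genes known from such stress and cytokine responses are controlled by NF-kB, a family of transcription factors that is held in the cytoplasm by inhibitor proteins until a signal such as interleukin-1 releases it. NF-kB switches on chemokines, cytokines and cyclooxygenase-2, together with feedback inhibitors that end the response.

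The level of a gene is given as the log2 intensity of its probe after each array was scaled to the same 75th percentile, and a difference of 1 is a 2-fold difference. Of 41000 probes on the array, 25238 passed a filter on background over all 72 arrays and were tested with limma, with the experiment as a block. A probe was called when its p-value adjusted by Benjamini-Hochberg over all 25238 probes was below 0.10. For a gene with several probes the brightest one that was tested is given. The 14 fibroblast markers, among them COL1A2, VIM and THY1, were well above background on all 8 arrays. Their summed levels (log2 of the sum) were 19.87, 19.67, 20.15 and 20.32 in control cells of experiments 1 to 4 and 19.64, 19.57, 19.80 and 19.47 in bystander cells, lower in each of the 4 pairs, and 4 of the 14 had a ratio above 0, with a median of -0.32 and none called. Of 10 leukocyte markers 3 were above background on all 8 arrays and 3 on none, and their summed levels were 9.77, 9.46, 10.05 and 10.07 in control cells and 9.83, 9.77, 10.24 and 10.17 in bystander cells, higher in each of the 4 pairs. Of the 3 leukocyte markers tested CD68 had a log2 ratio of 0.52 and CD14 and CD3E of -0.23 and -0.38, with a median of -0.23 and none called. The part of these shifts in the results was not tested. The brightest leukocyte marker was CD68, which macrophages and also fibroblasts express. For 12 epithelial markers the sums were 13.23, 12.63, 12.95 and 13.10 in control cells and 12.68, 12.82, 12.48 and 13.81 in bystander cells, higher in 2 of the 4 pairs, with KRT18 the brightest, 7 on all 8 arrays and 1 on none. For 8 endothelial markers they were 13.89, 13.22, 13.37 and 12.76 in control cells and 13.37, 13.65, 13.27 and 13.16 in bystander cells, higher in 2 of the 4 pairs, with TEK the brightest, 4 on all 8 arrays and 1 on none.

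Of the 25238 probes 133 were called higher (0.527%) and 23 lower (0.0911%), and 4015 had an unadjusted p below 0.05. The 133 higher probes stood for 98 named genes, and the largest changes were in the chemokine CXCL8, the protease inhibitor SERPINB2, the cytokine IL6, cyclooxygenase-2 (PTGS2) and the chemokine CXCL3. The 23 lower probes stood for 21 named genes, led by RGMA, EPHB3 and OPRL1. Of the higher probes 97 had a change of at least 2-fold, and of the lower ones 14. All 4 experiments had the same direction for 128 of the 133 and for 22 of the 23 probes, where 5 called probes lacked a value in 1 experiment. The 4 bystander and 4 control arrays did not overlap for 67 of the 133 and 21 of the 23, against 2.62% (bystander higher) and 2.01% (bystander lower) of all probes tested, 4.62% in all.

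**Figure D1:**
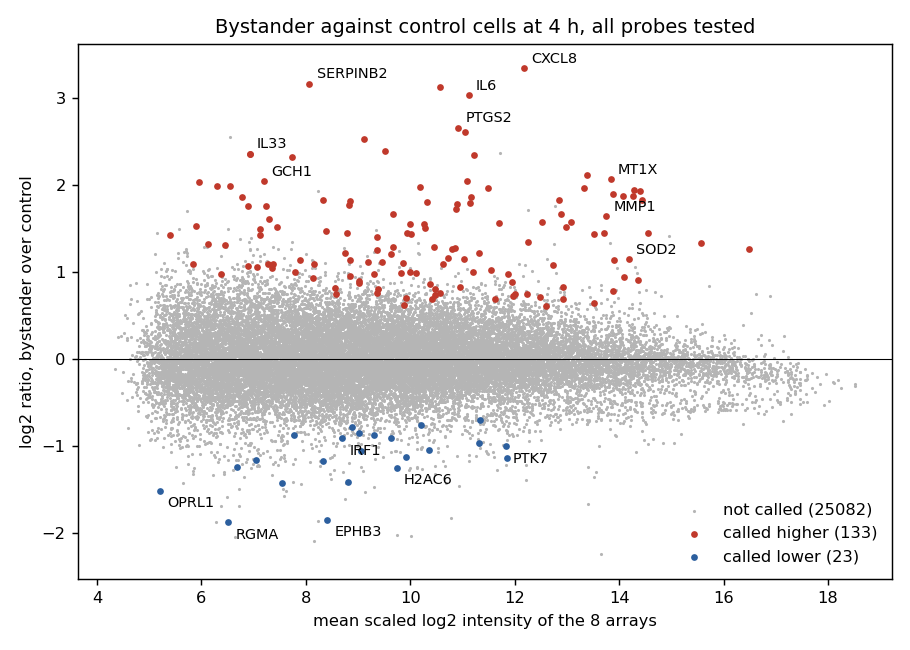
Each point is a probe, with its mean scaled log2 intensity over the 8 arrays on the x axis and its log2 ratio of bystander over control cells at 4 h on the y axis. The 133 probes called higher (red) reach 3.35 and the 23 called lower (blue) reach -1.88.

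The number of calls depended on the arrays fitted, the block, the experiments and the scaling. The fit held the 4 irradiated arrays of the time point beside the 8 arrays compared. With those 8 arrays alone 28 probes were called higher and 0 lower, with 2744 at an unadjusted p below 0.05. Without the experiment as a block 7 probes were called higher and 0 lower, with 1909 at an unadjusted p below 0.05. With the slide added as a fixed block 19 were called higher and 0 lower, with 3712 at an unadjusted p below 0.05. With the slide added as a random block 132 were called higher and 22 lower, with 3998 at an unadjusted p below 0.05. Leaving out experiment 1, 2, 3 or 4 gave 12, 10, 102 and 77 higher probes and 2, 0, 5 and 7 lower probes, with 4317, 4613, 2213 and 2629 at an unadjusted p below 0.05. The 2 experiments whose bystander and control arrays shared a slide (1 and 4) each had 23 of the 23 lower probes below 0. Of the 133 higher probes 131 were above 0 in both. The exceptions, a probe of CXCL2 and a probe of G0S2, had no ratio in experiment 1 and were above 0 in experiment 4. All called probes had been chosen from the same experiments, so these counts do not test the slide. Bystander arrays were brighter than the control arrays of experiments 1, 2 and 3, by 0.69, 0.38 and 0.87 on the log2 scale at the 75th percentile, and dimmer in experiment 4, by -0.15. Without scaling, as the arrays were deposited, the log2 ratio of all probes had a median of 0.42, and 3695 probes were called higher and 21 lower. Background correction by normexp instead gave 145 higher and 65 lower. After normexp the log2 ratios of ANXA10, IL1A, IL33, GCH1, BIRC3 and PTGFR, described below, were 0.88, 0.98, 1.42, 1.31, 1.05 and 0.66, and that of OPRL1 was -0.85, each over 1.5 times smaller than the ratio given there, and ANXA10, BIRC3 and PTGFR were no longer called. Without scaling the lower genes PTK7 (-0.56), FZD4 (-0.31), IRF1 (-0.47), CALHM2 (-0.41), EVI5L (-0.43), PRDM6 (-0.47), KIF26B (-0.60), NR1D1 (-0.66), EPHA4 (-0.68), MIDN (-0.73) and H2AC6 (-0.81) moved as much and were no longer called. Of all 23 lower probes 5 stayed called without scaling. The control array of experiment 4 stood apart from the other arrays of the time point, with a median correlation of 0.955 with them over all probes against 0.964 to 0.978 for the others, and the ratios of experiment 4 had the widest spread (SD 0.849, against 0.452 to 0.584 in the others). Without that control array 216 probes were called higher and 69 lower.

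Of the CXC chemokines, those of the GRO group and CXCL8 (interleukin-8) attract neutrophils and are classical NF-kB targets. Of 9 members tested 4 rose (CXCL8, CXCL3, CXCL2 and CXCL1), 0 fell, and the median log2 ratio was 1.08, beside -0.04 over all 13752 genes, of which 0.771% were called in either direction (0.647% higher and 0.124% lower). CXCL8 had levels of 9.67, 9.92, 9.78 and 12.66 in control cells of experiments 1 to 4 and of 14.93, 14.58, 11.40 and 14.50 in bystander cells. Bystander cells were higher in every experiment, but the control of experiment 4 was above the bystander cells of experiment 3, so the groups overlapped. The log2 ratio of CXCL8 was 3.35 ± 1.88 (SD, n = 4 pairs), a 10.2-fold difference with an adjusted p of 0.0313 by limma. CXCL3 stood at 9.67, 10.22, 9.81 and 9.31 in control cells and at 13.85, 13.75, 11.09 and 10.75 in bystander cells. Its groups did not overlap, and its log2 ratio was 2.61 ± 1.47 (limma adjusted p = 0.0308). CXCL2 had log2 ratios of 3.18, 2.77, 0.83 and 1.43 in experiments 1 to 4. Another called probe of CXCL2, brighter over the arrays with a value at 4 h, had 3.74, 1.38 and 1.54 in experiments 2 to 4. It had no ratio in experiment 1. Experiments 1 and 2 thus gave larger ratios than experiments 3 and 4 for all of CXCL8, CXCL3 and CXCL2. CXCL1 had a log2 ratio of 1.34 ± 0.63 (limma adjusted p = 0.0414). Of the 2 probes of CXCL5 the dimmer one was called, at 2.36, and the brighter one was not, at 1.08 (limma adjusted p = 0.123). CXCL12, a chemokine for progenitor cells and lymphocytes that these cells express without stimulus, had a log2 ratio of -0.57 (limma adjusted p = 0.226). Of 5 CC chemokines tested none was called. The log2 ratios of CCL2, which attracts monocytes, were 0.98, 0.83, -0.27 and -1.45 in experiments 1 to 4.

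Among the neighbours on chromosome 4, RefSeq places 9 CXC genes side by side, 8 of them tested and 5 with a called probe. Stretches of the promoters of these 5 and of IL6 are shown here with the letters GGNNTTTCC (a core of the NF-kB site, searched on both strands) in capitals, for 80 bases that end 31 bases before the transcription start in RefSeq (GRCh38.p14).
CXCL8, chr4:73740459-73740538, + strand: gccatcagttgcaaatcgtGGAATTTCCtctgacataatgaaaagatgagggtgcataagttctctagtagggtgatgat
CXCL1, chr4:73869283-73869362, + strand: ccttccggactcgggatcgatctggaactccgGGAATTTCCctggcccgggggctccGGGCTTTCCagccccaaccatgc
CXCL2, chr4:74099226-74099305, - strand: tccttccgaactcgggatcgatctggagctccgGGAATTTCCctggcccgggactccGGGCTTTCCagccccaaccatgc
CXCL3, chr4:74038720-74038799, - strand: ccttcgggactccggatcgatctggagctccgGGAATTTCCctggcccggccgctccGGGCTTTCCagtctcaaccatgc
CXCL5, chr4:73998708-73998787, - strand: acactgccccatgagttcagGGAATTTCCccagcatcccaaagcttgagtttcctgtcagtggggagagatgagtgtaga
IL6, chr7:22727090-22727169, + strand: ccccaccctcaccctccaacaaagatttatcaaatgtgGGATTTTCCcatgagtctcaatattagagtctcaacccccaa
The same letters GGAATTTCC stood in all 5 chemokine promoters, and CXCL1, CXCL2 and CXCL3 had a further match nearer the start. Of the 98 genes called higher 69 had a promoter in the RefSeq table, and 15 of them (21.7%) held GGNNTTTCC within 250 bases before the start, against 5.48% of all 35116 promoters. Of the 16 lower genes with a promoter 0 held it. TGANTCA, the letters of the AP-1 site, stood in 6 of the 69 (8.70%), among them CXCL8, IL1A, MMP10 and SERPINB2, against 6.57% of all promoters. A match of letters is a description and not a bound site.

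IL6, a secreted cytokine of the acute phase response, had levels of 9.21, 9.07, 9.22 and 10.89 in control cells and of 14.06, 14.16, 9.52 and 12.80 in bystander cells. It rose strongly in experiments 1 and 2, less in experiment 4 and by 0.29 in experiment 3, where bystander cells stayed within the range of the controls. The log2 ratio was 3.04 ± 2.33 (limma adjusted p = 0.095). LIF, a cytokine of the same receptor family, was more uniform, with log2 ratios of 2.00, 2.17, 0.85 and 2.33, groups that did not overlap and a mean of 1.84 ± 0.67 (limma adjusted p = 0.00538). These 2 were the genes called among 18 tested of the IL-6 family and its STAT3 feedback, whose median was -0.21. IL11, another member, had a log2 ratio of 1.06 ± 0.80 (limma adjusted p = 0.145), and SOCS3, a feedback inhibitor of this pathway, had -0.30 (limma adjusted p = 0.312).

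In the IL-1 family 4 of 12 genes tested rose and 0 fell, with a median of 0.21. IL33, an alarmin stored in the nucleus, had levels of 6.14, 5.75, 5.36 and 5.73 in control cells and of 8.25, 8.31, 7.24 and 8.62 in bystander cells. The groups did not overlap, and the log2 ratio was 2.36 ± 0.45 (limma adjusted p = 0.00184). IL1A stood at 5.20, 4.56, 6.27 and 5.17 in control cells and at 7.50, 7.38, 7.81 and 6.47 in bystander cells, without overlap, and had a log2 ratio of 1.99 ± 0.70 (limma adjusted p = 0.0171). IL1B had log2 ratios of 2.71, 2.66, 1.48 and 0.63, with a mean of 1.87 ± 1.00 (limma adjusted p = 0.0394). The fourth was IRAK3, an inhibitor of signalling from IL-1 receptors, at 0.93. The receptor adaptor MYD88 (-0.45, limma adjusted p = 0.343) and the kinase IRAK1 (-0.12, limma adjusted p = 0.799) were not called. TSLP, a cytokine that acts on dendritic cells, had log2 ratios of 1.04, 1.03, 1.58 and 2.12 and a mean of 1.44 ± 0.52 (limma adjusted p = 0.0321). It was the only one called of 13 tested colony-stimulating and other cytokines.

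NF-kB's own subunits and feedback genes gave 5 higher and 0 lower calls among 19 tested, with a median of 0.51. TNFAIP3 (A20), an enzyme that shuts down signalling to NF-kB, had levels of 8.94, 9.39, 8.66 and 8.36 in control cells and of 11.15, 11.32, 9.62 and 9.94 in bystander cells. The groups did not overlap, and the log2 ratio was 1.67 ± 0.54 (limma adjusted p = 0.00504). NFKBIZ, a nuclear member of the inhibitor family, had log2 ratios of 1.80, 1.88, 1.07 and 1.26 with a mean of 1.50 ± 0.40 (limma adjusted p = 0.0072). BIRC3, an inhibitor of apoptosis, had a mean of 1.61 ± 0.86 (limma adjusted p = 0.0657), with its largest value, 2.90, in experiment 4. The other calls were the subunits RELB (1.14 ± 0.62) and NFKB1 (0.98 ± 0.55). NFKBIA, which encodes the main inhibitor of NF-kB, had a log2 ratio of -0.10 and was not called, with a 95% interval by limma of -0.41 to 0.21. The subunit RELA was at -0.15 ± 0.51 (limma adjusted p = 0.708).

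Prostaglandins are made from arachidonic acid, which a phospholipase releases and a cyclooxygenase converts. Of 16 genes of this pathway tested 4 rose and 0 fell. PLA2G4A, the phospholipase, had log2 ratios of 0.79, 1.21, 1.41 and 1.61 and a mean of 1.26 ± 0.35 (limma adjusted p = 0.0319). PTGS2, the inducible cyclooxygenase, had levels of 8.91, 9.28, 10.24 and 9.91 in control cells and of 12.41, 12.60, 11.93 and 12.05 in bystander cells. The bystander arrays were alike and far above every control array, and the log2 ratio was 2.66 ± 0.89, a 6.34-fold difference (limma adjusted p = 0.00191). The synthase PTGES (1.05 ± 0.47) and the receptor PTGFR (1.05 ± 0.40) were called at adjusted p-values by limma of 0.067 and 0.0736. PTGS1, the constitutive cyclooxygenase, had a log2 ratio of -0.35 (limma adjusted p = 0.343), and the synthase PTGES3 had 0.06 (limma adjusted p = 0.833).

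Metallothioneins, small cysteine-rich proteins that bind zinc and copper, formed the list with the largest share of calls. Of 16 metallothionein and zinc genes tested 9 rose and 0 fell, and the median log2 ratio was 1.68. The median over the list was 2.15, 2.70, 0.46 and 1.31 in experiments 1 to 4, so that experiment 3 again gave the smallest change. MT1X had levels of 13.41, 13.04, 13.22 and 13.52 in control cells and of 15.99, 16.01, 13.76 and 15.23 in bystander cells. The controls were tight, all bystander arrays lay above them, and the log2 ratio was 1.95 ± 1.08 (limma adjusted p = 0.0359). MT1E (2.12 ± 1.36), MT1H (1.94 ± 1.08), MT1L (1.88 ± 1.20), MT1B (1.88 ± 1.20), MT1G (1.82 ± 1.07) and MT1A (1.45 ± 1.04) had ratios of like size. These genes are close copies of each other, their probes can bind each other's transcripts, and their values should not be counted as separate measurements. MT2A had 1 of 3 probes called (1.26), and its brightest probe gave 0.73 ± 0.58 (limma adjusted p = 0.162). MT3, a form known from brain, had a log2 ratio of -0.38 (limma adjusted p = 0.525). Transporters that carry zinc into the cytoplasm rose too, SLC39A8 by 1.53 ± 0.32 (limma adjusted p = 0.0207) and SLC39A14 by 1.09 ± 0.45 (limma adjusted p = 0.0314). MT1B, MT1G, MT1A and the transporters were added after their values were seen, to complete the count of 9.

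The 11 protein-coding metallothionein genes lie side by side on chromosome 16 in RefSeq, 10 were tested and 7 had a called probe, although these probes are not separate measurements. Of the 3 tested genes next to the cluster 0 were called, where 0.771% of all genes were. The bases before the start of MT1X and MT1H in RefSeq (GRCh38.p14) are shown for the metal response element, with TGCGCNC and TGCACNC on either strand in capitals.
MT1X, chr16:56682310-56682469, + strand: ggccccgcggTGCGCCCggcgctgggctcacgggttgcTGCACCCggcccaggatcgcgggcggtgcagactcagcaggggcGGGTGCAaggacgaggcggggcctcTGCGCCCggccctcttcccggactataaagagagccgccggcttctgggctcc
MT1H, chr16:56669654-56669813, + strand: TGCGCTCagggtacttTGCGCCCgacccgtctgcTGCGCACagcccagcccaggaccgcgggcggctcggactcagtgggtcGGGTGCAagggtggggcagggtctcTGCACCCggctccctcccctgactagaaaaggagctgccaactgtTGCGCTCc
Within 250 bases before the start MT1X held 4 matches, MT1H 8, MT2A 7 and MT1B 3, the lower gene OPRL1 held 4, and 0.37% of all promoters held 4 or more. At least 1 match stood in 28 of the 69 promoters of higher genes and in 6 of the 16 of lower genes, against 24.8% of all promoters. Here too the called genes had 1 promoter each, whereas the shares over all promoters count every one.

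Secreted proteases and their inhibitors changed in a few members. Of 16 matrix metalloproteinases and inhibitors tested 3 rose, 0 fell and the median was -0.11. The 3 were MMP10 and MMP3 (stromelysins) and MMP1 (interstitial collagenase), which degrade collagen and other matrix proteins and are neighbours on chromosome 11. MMP10 had levels of 7.68, 7.48, 8.41 and 8.15 in control cells and of 9.30, 9.31, 10.07 and 10.13 in bystander cells. Its ratios lay between 1.62 and 1.98, with a mean of 1.77 ± 0.16 (limma adjusted p = 0.00191). MMP3 had log2 ratios of 1.76, 2.46, 1.22 and 2.46, with a mean of 1.97 ± 0.60 (limma adjusted p = 0.00295), although its levels overlapped between the groups. MMP1 rose by 1.64 ± 0.51 (limma adjusted p = 0.00578). The inhibitors TIMP1 (0.28, limma adjusted p = 0.379) and TIMP3 (-0.25, limma adjusted p = 0.399) were not called. In the plasminogen activator system 1 of 8 genes tested rose. SERPINB2 (plasminogen activator inhibitor-2) had levels of 8.43, 8.40, 8.47 and 10.71 in control cells and of 12.77, 12.78, 9.50 and 13.51 in bystander cells. As for CXCL8 and IL6, its control of experiment 4 was high and its bystander array of experiment 3 was low, and the log2 ratio was 3.14 ± 1.58 (limma adjusted p = 0.0161). The activators PLAU (0.00) and PLAT (-0.31) had adjusted p-values by limma of 0.991 and 0.317. ICAM1, an adhesion molecule for leukocytes, rose by 1.29 ± 0.59 (limma adjusted p = 0.0359), and VCAM1 had 0.15 ± 0.52 (limma adjusted p = 0.768).

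**Figure D2:**
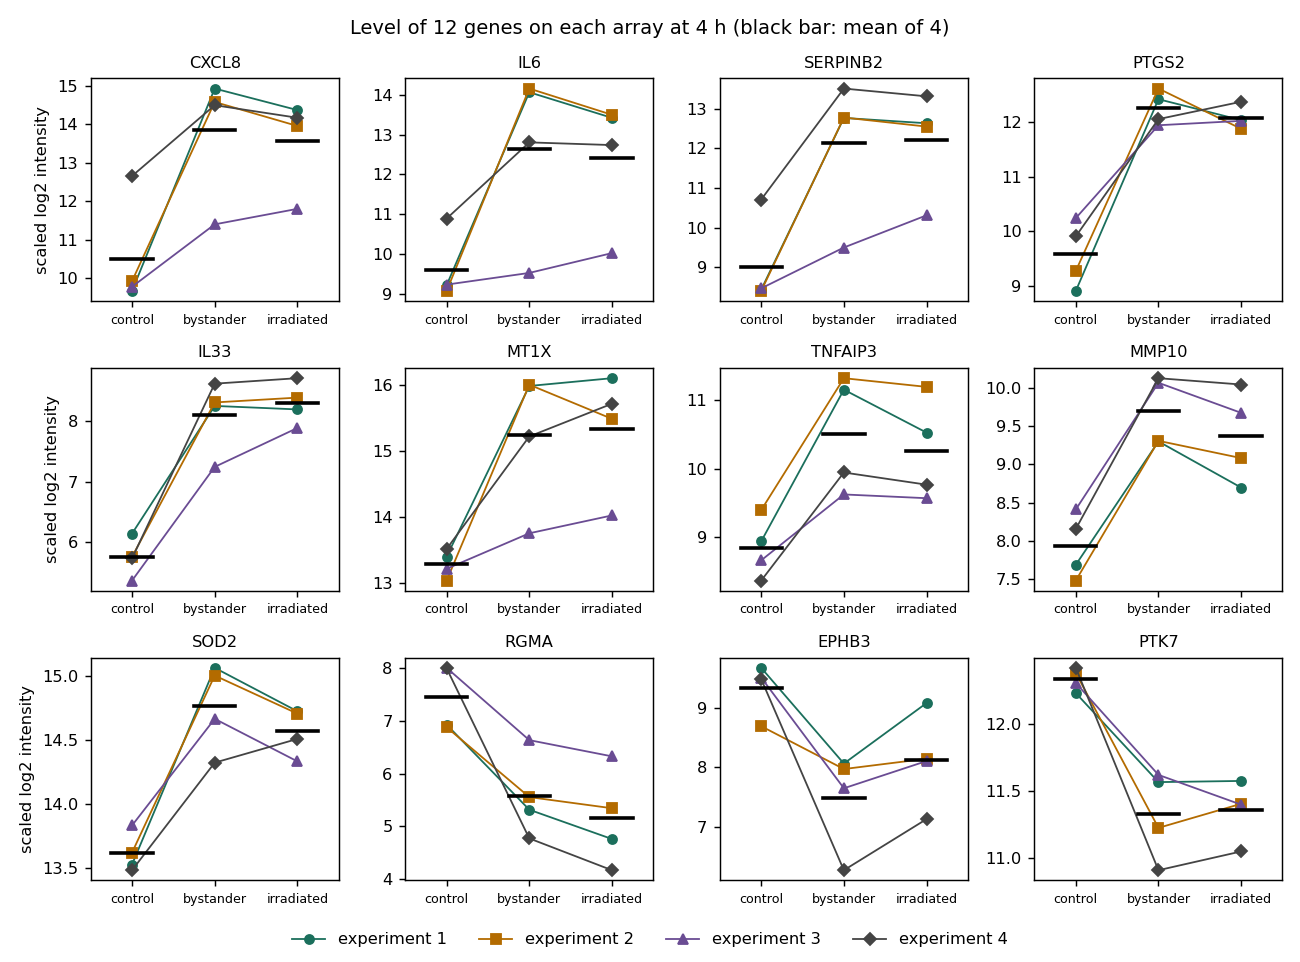
Scaled log2 intensity (y axis) of 12 genes on the 12 arrays at 4 h, with the arrays of an experiment joined by a line across control, bystander and irradiated cells (x axis) and the mean of each group as a black bar. CXCL8, IL6 and SERPINB2 have a high control in experiment 4 and low bystander and irradiated arrays in experiment 3, whereas the control and bystander arrays of PTGS2, IL33, MMP10 and PTK7 do not overlap.

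Other raised genes came from several functions. GCH1, the entry enzyme of tetrahydrobiopterin synthesis, had levels of 6.13, 6.80, 6.15 and 5.64 in control cells and of 8.88, 9.01, 7.58 and 7.44 in bystander cells, without overlap, and a log2 ratio of 2.05 ± 0.57 (limma adjusted p = 0.00295). ANXA10, an annexin, rose by 2.04 ± 1.30 (limma adjusted p = 0.0617). DUSP2 and DUSP5, phosphatases that inactivate MAP kinases, were the 2 called of 17 tested in their list. DUSP5 rose in all 4 experiments (1.40 ± 0.79), whereas DUSP2 had log2 ratios of 3.66, 3.70, -0.04 and 2.25. DUSP1 of the same family had 0.79 ± 0.52 (limma adjusted p = 0.15). Of 21 oxidative stress genes 2 rose, the mitochondrial superoxide dismutase SOD2 (1.15 ± 0.37, limma adjusted p = 0.0152) and the cystine transporter SLC7A11 (1.28 ± 0.44, limma adjusted p = 0.0171), for which 3 of 3 probes were called. The ferritin chains FTH1 (0.02) and FTL (0.00) had limma adjusted p-values of 0.966 and 0.996. Of 14 heat shock and chaperone genes 1 rose, the co-chaperone DNAJB4 (0.99 ± 0.42). Outside this count, and chosen after its value was seen, a probe of HSP90AA1 was called at 0.75 (limma adjusted p = 0.0563). FGF2, a growth factor for fibroblasts and vessels, rose by 1.35 ± 0.48 (limma adjusted p = 0.0152), the only call among 22 genes of the EGF, FGF and VEGF families. INHBA, which forms activin, rose by 1.44 ± 0.72 (limma adjusted p = 0.0695), the only call among 24 genes of TGF-beta and BMP signalling. Chosen after their values were seen, SLC16A6 (1.82), a transporter of the monocarboxylate family, KYNU (1.66), an enzyme of tryptophan breakdown, and NAMPT (1.45), an enzyme of NAD synthesis, are further called genes outside these lists. The apoptosis inhibitor BCL2A1, chosen likewise, had a called probe at 2.33, but its brighter probe was not called, at -0.14.

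Among the genes that fell, RGMA, a membrane-bound guidance molecule and BMP co-receptor, had levels of 6.93, 6.88, 8.0 and 7.99 in control cells and of 5.32, 5.56, 6.63 and 4.77 in bystander cells. The groups did not overlap, and the log2 ratio was -1.88 ± 0.90 (limma adjusted p = 0.0561). EPHB3 and EPHA4 are receptors for ephrins, which guide contact between cells. EPHB3 stood at 9.68, 8.69, 9.51 and 9.48 in control cells and at 8.06, 7.97, 7.65 and 6.26 in bystander cells, without overlap, with a log2 ratio of -1.86 ± 1.03 (limma adjusted p = 0.0443). Its largest difference, -3.22, was in experiment 4, as for RGMA. EPHA4 had log2 ratios of -0.56, -1.26, -1.33 and -1.36 and a mean of -1.13 ± 0.38 (limma adjusted p = 0.0394), but 1 of its 3 probes was called. PTK7, a Wnt co-receptor without kinase activity, had levels of 12.23, 12.38, 12.31 and 12.42 in control cells and of 11.57, 11.22, 11.62 and 10.91 in bystander cells, without overlap, and a log2 ratio of -1.01 ± 0.41 (limma adjusted p = 0.0314). The Wnt receptor FZD4 fell by 0.76 on the log2 scale in the mean, with -0.59, -0.57, -0.93 and -0.94 in the 4 experiments (limma adjusted p = 0.0632). It was the only call among 20 genes of a list of Wnt and Notch signalling, which does not hold PTK7.

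The kinesin KIF26B (-1.04 ± 0.47) and the opioid-like receptor OPRL1 (-1.52 ± 0.65) fell, at limma adjusted p-values of 0.0695 and 0.0561, and the levels of OPRL1 overlapped between the groups. BRINP3 had -1.42 ± 0.84 (limma adjusted p = 0.0934), with -2.64 in experiment 4. IRF1, a transcription factor of the interferon response and itself a known NF-kB target, had log2 ratios of -0.45, -0.57, -1.34 and -1.29 and a mean of -0.91 ± 0.47 (limma adjusted p = 0.0859). It was the only call among 23 interferon-stimulated genes tested, whose median was -0.23. H2AC6, a histone H2A gene, fell with a log2 ratio of -1.25 ± 0.80 (limma adjusted p = 0.0891) and was the only call among 16 histone genes. NR1D1, a repressor of the circadian clock, had log2 ratios of -0.87, -1.32 and -1.10 in experiments 1, 3 and 4, and its value on the control array of experiment 2 was missing (limma adjusted p = 0.0561). The mean ratio of NR1D1 lay between -1.15 and -0.39 over the alternatives of processing. It was called in 9 of these 19. NR1D1 was the only call among 13 circadian regulators. The transcription factor PRDM6 (-0.91 ± 0.51), EVI5L (-0.88 ± 0.24), CALHM2 (-0.85 ± 0.31), MIDN (-1.17 ± 0.57) and USP41P (-1.42 ± 0.85) were called at limma adjusted p-values of 0.0711 to 0.0999. Chosen after their values were seen, the homeobox gene HOXA5 (-0.70) was also called lower.

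Several lists gave no call in either direction, which at 4 pairs does not show that they were equal. These were 26 p53 target genes (median -0.06), 24 immediate early genes (0.22), 22 collagen chains (-0.20), 24 genes of collagen modification and elastic fibres (-0.37), 17 smooth muscle contractile genes (-0.58), 25 genes of DNA replication (0.05), 25 of mitosis (0.06), 17 of cholesterol synthesis (0.08), 21 of the unfolded protein and amino acid response (-0.02), 18 hypoxia genes (0.39) and 14 complement genes (-0.17). For the p53 targets the medians in experiments 1 to 4 were 0.13, 0.26, -0.03 and -0.66. Of the smooth muscle genes 2 of 17 had a ratio above 0, but the median in experiment 3 was -1.61 against -0.40, -0.04 and -0.40 in the others. Of the histone genes 1 of 16 and of the hypoxia genes 17 of 18 were above 0, where 6073 of all 13752 genes were. The median of the hypoxia genes was -0.16, -0.04, 0.60 and 0.70 in experiments 1 to 4, above 0 in experiments 3 and 4 alone. The reference gene PPIA (-0.15, 95% interval by limma -0.52 to 0.22) was not called. DCN, a matrix proteoglycan (-0.64, limma adjusted p = 0.181), ACTB (-0.53, limma adjusted p = 0.18) and COL1A2 (-0.40, limma adjusted p = 0.384) were not called.

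**Figure D3:**
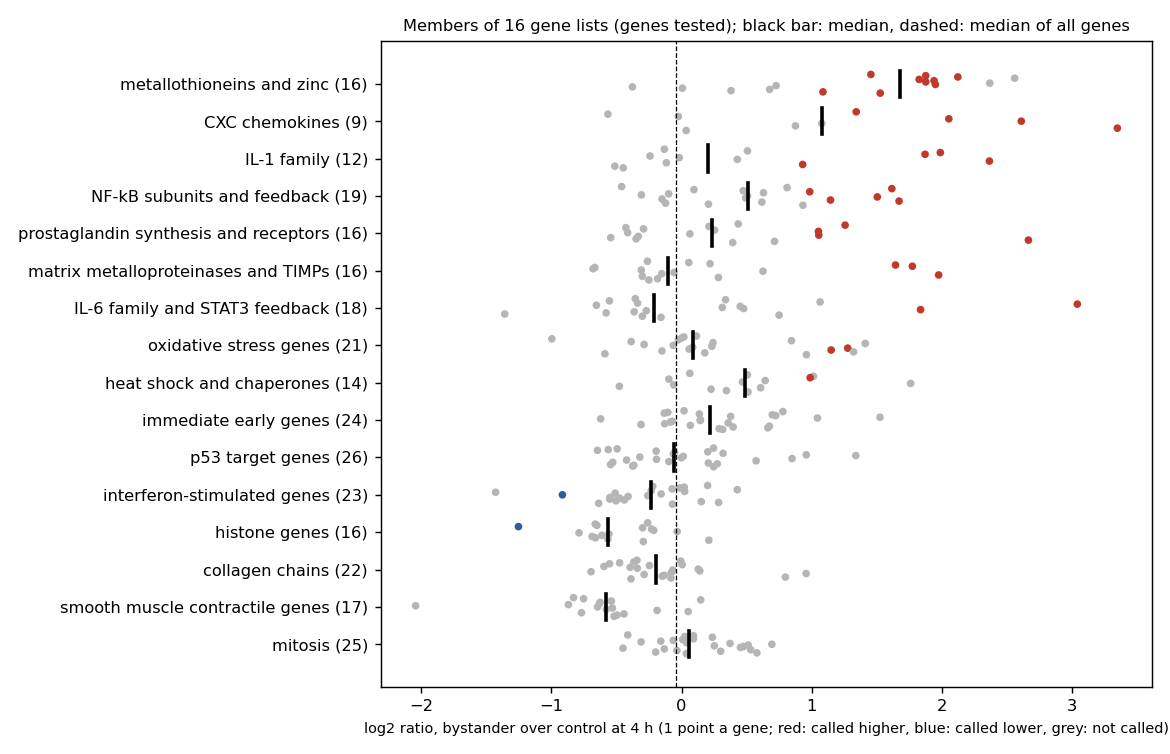
The log2 ratio of bystander over control cells at 4 h (x axis) for every tested member of 16 gene lists (rows), in red where called higher, in blue where called lower and in grey where not called. The median (black bar) is 1.68 for metallothioneins and zinc genes and 1.08 for CXC chemokines, against a median of -0.04 over all genes (dashed line). The medians of the other lists lie between -0.58 (smooth muscle contractile genes) and 0.51 (NF-kB subunits and feedback).

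The filter over 72 arrays left out probes that are above background in 1 group only. At 4 h 55 probes were well above background on all 4 bystander arrays and on no control array, and 1 had the opposite pattern. For these only a lower bound of the difference can be given, taken against the lowest signal that counts as well above background on each array. The probes were chosen for this pattern, so their values are a description with no test. Of all spots 70.2%, 72.6%, 73.7% and 70.1% were well above background on the bystander arrays of experiments 1 to 4. On the control arrays 67.9%, 69.3%, 69.7% and 68.9% were. The part of this difference in the counts of 55 and 1 was not tested. CSF3 (G-CSF), a growth factor for neutrophils, had levels of 9.75, 9.75, 3.85 and 5.30 in bystander cells of experiments 1 to 4 and was at least 13.3-fold higher in the mean, with far higher levels in experiments 1 and 2 than in 3 and 4. ARC, an early response gene known from neurons, had levels of 7.19, 7.20, 4.28 and 5.12 and was at least 5.71-fold higher in the mean. Both were not well above background in control cells, with mean measured levels of 2.08 and 0.96. Among probes with a gene name, the next bounds in bystander cells were 5.11-fold for RBP7, 3.92-fold for TBC1D32, 3.07-fold for ZNF738, 2.86-fold for BACH1 and 2.69-fold for AATK. A probe without a gene name had a bound of 3.29-fold. APOL5 was at least 3.73-fold higher in control cells.

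Irradiated cells of the same dishes were compared with the bystander cells directly. In the direct comparison of irradiated with bystander cells 0 of 25238 probes were called by limma (0%), and 323 had an unadjusted p below 0.05. This count is a smaller share of the 25238 probes than the 0.05 expected where nothing differs. The spread used in the test and in the intervals below also came from the control arrays. The 0 calls therefore do not show that irradiated and bystander cells were alike. Scaled to added transcripts 5 probes were called, and after normexp 18. Without the control array of experiment 4, which is no part of this comparison, 29 were called. Against control 1.18% of probes were called in irradiated cells (0.939% higher and 0.242% lower). The ratios of both groups to control share the control arrays and are therefore given side by side. CXCL8 had a log2 ratio of 3.07 in irradiated cells and 3.35 in bystander cells, and the difference of irradiated minus bystander was -0.28 with a 95% interval by limma of -1.45 to 0.90. For PTGS2 the ratios were 2.48 and 2.66 and the difference was -0.18 (-0.77 to 0.41). For MT1X they were 2.04 and 1.95 and the difference 0.09 (-0.62 to 0.80). For IL33 they were 2.55 and 2.36 with a difference of 0.19 (-0.26 to 0.64), and for RGMA -2.30 and -1.88 with a difference of -0.42 (-1.17 to 0.34). GCH1 was lower in irradiated than in bystander cells by -0.54 (-1.03 to -0.06) and EPHA4 was higher by 0.58 (0.16 to 1.00), but neither passed the adjustment over all probes (limma adjusted p = 1.00 for both).

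The same genes were followed on arrays of 5 other time points, each with its own control arrays from the 4 experiments. All 133 probes that were higher at 4 h had a ratio above 0 at 0.5 h, where 51.5% of all probes did, and 119 of them were called higher there, against 4.35% of all probes (6.98% in either direction). At 1 h 131 were above 0 and 0 were called, at 2 h 131 and 15 (0.198% of all probes were called higher, 0.23% in either direction). At 6 h 130 were above 0 and 37 called (0.214%, and 0.277% in either direction), and at 24 h 127 and 4 (0.0158%, and 0.0198% in either direction). The median log2 ratio of the 133 was 1.31 at 0.5 h, 0.60 at 1 h, 0.55 at 2 h, 1.32 at 4 h, 0.87 at 6 h and 0.68 at 24 h. The value at 4 h is the one that chose the probes and is not comparable with the others. The 23 lower probes were below 0 in 22, 22, 21, 23 and 22 cases at 0.5, 1, 2, 6 and 24 h, where 9, 0, 0, 1 and 0 were called lower. Of all probes 2.63%, 0%, 0.0317%, 0.0634% and 0.00396% were called lower at these times. The array positions on the slides were nearly the same at each time point, and their part in this likeness was not tested.

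Single genes had their highest ratios at different times. CXCL8 had log2 ratios of 3.60 ± 1.97 at 0.5 h, 0.97 ± 1.35 at 1 h, 1.30 ± 0.71 at 2 h, 3.35 ± 1.88 at 4 h, 3.68 ± 2.09 at 6 h and 1.90 ± 1.23 at 24 h. PTGS2 had 2.73, 0.90, 1.12, 2.66 and 2.62 up to 6 h and 0.47 ± 0.75 at 24 h. MMP3 had 2.67 ± 1.62 at 0.5 h, 1.21 ± 1.63 at 1 h, 1.01 ± 0.40 at 2 h, 1.97 ± 0.60 at 4 h, 3.37 ± 2.12 at 6 h and 2.01 ± 0.87 at 24 h. MT1X had 2.36, 0.88, 1.04, 1.95, 1.20 and 1.13 in the same order, with the smallest spread at 2 h (SD 0.14). IL33 had 1.81, 0.75, 0.39, 2.36, 3.19 and 1.33. GCH1 had 1.82 at 0.5 h and 2.05 at 4 h but 0.67 ± 0.62 at 6 h. RGMA had -1.30, -1.12, -1.52, -1.88, -2.0 and -1.24 and was called at 4 and 6 h alone. PTK7 had -0.79, -0.75, -0.68, -1.01, -1.09 and -0.80 and was called at 0.5 and 4 h alone. CXCL8 and PTGS2 were called at 0.5, 2, 4 and 6 h, MT1X at the same times, IL33 and MMP3 at 0.5, 4 and 6 h, and GCH1 at 0.5 and 4 h. The ratio at 4 h was tested by limma against that of each other time over the 24 pairs. For 0.5, 1, 2 and 6 h 0 probes were called (0%), with 420, 446, 950 and 645 at an unadjusted p below 0.05. For 24 h 1 was called (0.00396%), with 673. Each of these counts is a smaller share of the 25238 probes than the 0.05 expected where nothing differs. The 0 calls therefore do not show that the response was the same at these times. The call against 24 h was PRSS35, a protease-like protein, with a log2 ratio of -0.24 at 4 h and -2.36 at 24 h. Its ratios at 24 h were -2.41, -2.67, -1.88 and -2.50 in the 4 experiments, and the difference of 2.13 had a 95% interval of 1.61 to 2.65 (limma adjusted p = 0.000871). The call was lost after normexp and on leaving out experiment 2 or experiment 4, where 0 probes were called.

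**Figure D4:**
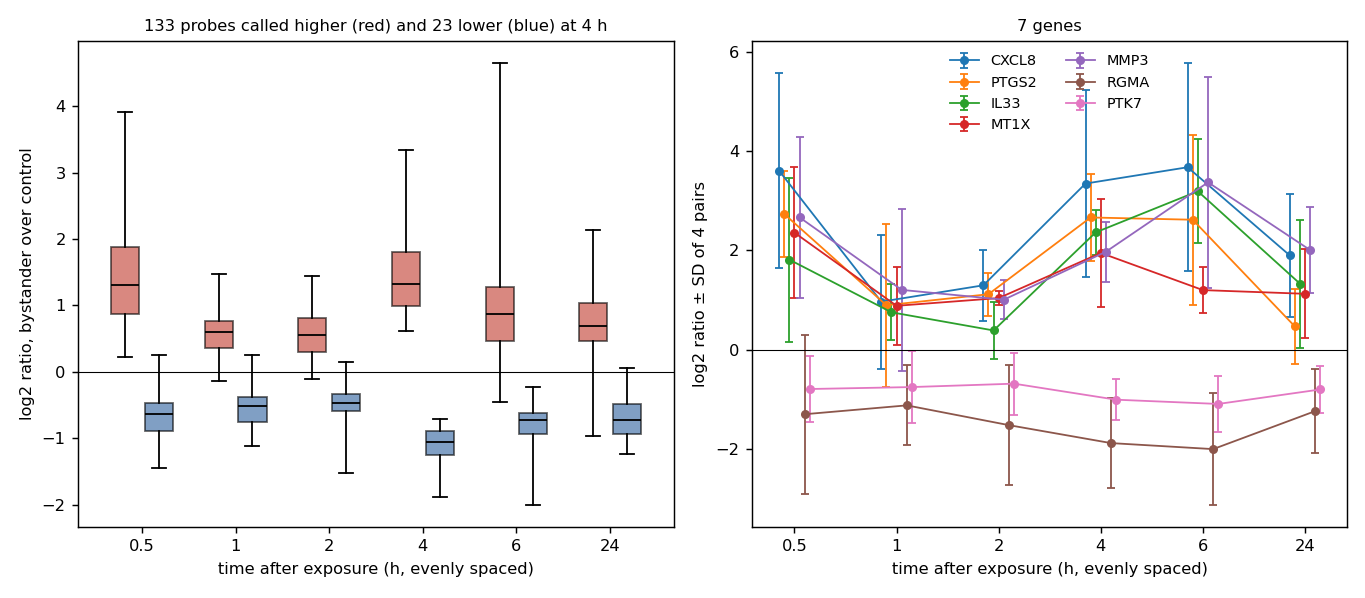
Left, log2 ratios of bystander over control cells (y axis) at 6 times (x axis, evenly spaced) for the probes called higher (red) or lower (blue) at 4 h, with boxes from the 25th to the 75th percentile, the median as a line and whiskers over the whole range. Right, mean log2 ratio ± SD of 4 pairs for 7 genes, where CXCL8, PTGS2 and MT1X are high at 0.5 h, lower at 1 and 2 h and high again at 4 h, and RGMA and PTK7 are below 0 at all 6 times.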

How the data were processed

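The authors deposited 1 scanner output per array, made with Agilent Feature Extraction, whose intensity of each spot is background-subtracted and corrected for spatial trends, without normalization between arrays. A deposited table of log2 values of the same arrays lay within 0.01 of the log2 intensity for 91.7% of values and was used as an alternative only. Control spots were left out, non-uniform spots set to missing (at most 0.544% of an array), spots of a probe averaged, and probes kept unless more than 10% of the 72 arrays were not well above background or non-uniform, as in the methods. At 4 h 67.9% to 73.7% of spots were well above background, and no array had more than 3 saturated spots. The number of arrays limits the precision.

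Each array was scaled to a common 75th percentile, floored at 1 and taken to log2. limma 3.58.1 in R 4.3.3 was fitted to the 12 arrays at 4 h (control, bystander, irradiated) with treatment and experiment, an intensity trend in eBayes and Benjamini-Hochberg adjustment. An exact sign-flip test on 4 pairs cannot go below p = 0.125, so the fit over all probes was used. The pairing came from the methods (parallel dishes from 1 pool of cells). With group means removed, control and bystander arrays of the same number correlated at -0.01, 0.35, 0.47 and 0.22, against medians of -0.11, -0.23, -0.07 and -0.19 for other numbers. The best match was the same number in experiments 2, 3 and 4, but number 2 in experiment 1. The p-values rest on a spread between these experiments that was taken from all 12 arrays, on a single cell strain. The irradiated arrays enter this spread, and their cells shared a dish with the bystander cells. The spread is therefore not that of the 4 bystander and control pairs alone. With the 8 control and bystander arrays alone 28 probes were called higher and 0 lower. The arrays at 4 h lay on 3 slides, and bystander and control arrays shared 1 in experiments 1 and 4. The steps were run on simulated arrays with known changes. Their errors were independent between arrays, so the effect of a shared dish or slide was not tested.

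Gene symbols came from accessions matched to RefSeq for 25398 probes, from current symbols for 2510, from synonyms for 789 and from the file alone for 1659, and 10644 had none. The genes named were taken from a written rule, of whose uncalled genes not all are given. It took the 15 largest called changes in each direction with 4 of 4 pairs alike. From each gene list it took up to 3 called members in each direction and 2 bright uncalled members. It also took the reference gene PPIA and the 8 largest bounds among probes with a gene name. Genes called against irradiated cells or against another time were the last part. A reference gene of the rule is not reported here. Exceptions are named as such, complete a count of 5 or fewer, or are the remaining called genes of the metallothionein and zinc list, whose values had been seen. The comparison, gene lists and rule were chosen with earlier results of these data known, so the lists are described by counts and medians without a test. Alternatives were no scaling, quantile, median, spike-in and normexp scaling, the authors' table, other filters, blocks and arrays, and leaving out each experiment. Leaving out the control array of experiment 4, and no scaling with no block, were chosen after seeing the data.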

Additional observations from a re-analysis of the deposited data

Results flagged for a closer look

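PRSS35 was the gene whose bystander ratio differed between 4 h and another time, by 2.13 on the log2 scale against 24 h, a call that was lost after normexp and without experiment 2 or experiment 4. Probes outside the filter over 72 arrays carried signal in 1 group: 55 were well above background on all 4 bystander arrays and no control array, and 1 the other way round. Each bystander array also had more spots well above background than the control array of its experiment, and the part of this was not tested. A sample far from the other 3 of its group, as a share of the group's range, was found in 18 of 244 groups of 4 tested (7.38%), where chance gives about 1 in 20. Of the 18, 3 were the control of experiment 4 and 6 the bystander array of experiment 3. In control cells of experiment 4 CXCL8 (0.914 of the range), SERPINB2 (0.972) and IL6 (0.913) were high, and their log2 ratios over all 4 experiments were 3.35, 3.14 and 3.04. In bystander cells of experiment 3 CXCL8 (0.877) and MMP1 (0.900) were low, as were the genes PTGES3 (0.839), TK1 (0.890) and ACTG2 (0.914), which were not called, whereas CD68 (0.963) was high. In bystander cells of experiment 4 BRINP3 (0.882) and VCAM1 (0.910) were low and the early gene IER2 (0.865) was high. In control cells INHBA (0.830) was low in experiment 3, MYD88 (0.836) in experiment 1, and H3-3B (0.891), ADM (0.834), ATF4 (0.856) and MFAP4 (0.940) in experiment 2.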

How the results depend on the processing

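All 133 higher probes stayed above 0 and all 23 lower probes below 0 in each of the 19 alternatives, but the number called moved. Higher and lower calls were 3695 and 21 without scaling, 67 and 14 scaled to spike-in transcripts, 145 and 65 after normexp, and 37 and 0 without the filter on background. They were 28 and 0 with the 8 control and bystander arrays alone. Beside the replicate block they were 19 and 0 with the slide as a fixed block, and 132 and 22 with the slide as a random block. Of calls, 85.3% were higher, against 99.4% without scaling, 69.0% after normexp and 75.8% without the control array of experiment 4. Without the replicate block that pairs the arrays of an experiment there were 7 and 0 calls, and 9 and 0 when scaling was dropped too. Limma gave 1716 to 6757 probes at an unadjusted p below 0.05 over these settings. Leaving out 1 experiment gave 10 to 102 higher and 0 to 7 lower calls, and leaving out the control array of experiment 4 gave 216 and 69. Between irradiated and bystander cells 0 probes were called in every leave-one-out fit, 5 scaled to spike-in transcripts, 18 after normexp and 29 without that control array. Between 4 h and 24 h 2 probes were called without scaling, 0 after normexp and 0 to 1 on leaving out an experiment, and between 4 h and 0.5 h 0 to 2. The cause of these shifts was not tested. Of the 49 called genes that the naming rule chose, all kept their sign in the 19 alternatives, 26 were called under every scaling and 2 in all 4 fits without an experiment. Of 72 genes not called, 48 changed sign in at least 1 alternative and 8 were called in at least 1. Medians of gene lists moved beyond their spread in 34 cases and not in 362. The number of arrays and signal near background limit the genes of low level.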
